A study of Mus musculus with 8 samples.

Results

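The genes described here are 10 genes of Wnt signaling and of pericentral liver zonation, out of 21728 protein-coding genes on chromosomes 1 to 19 and X. They were chosen by name (Glul, Axin2, Lgr5, Tbx3, Rnf43, Znrf3, Ctnnb1, Tcf7l2, Oat and Rgn), and each open region that overlapped the body of one of them, or lay within 10 kb of it, was counted. The regions come from ATAC-seq, in which a transposase inserts sequencing adapters into open DNA, of nuclei from frozen livers of adult C57BL/6 mice (C57BL/6J in the study's methods), with 50000 nuclei per library. The 4 control libraries came from mice whose titles read "cre" and which the study describes as Cre-expressing controls. The 4 Alb-D2KO libraries came from mice with floxed Dio2, the gene of the type 2 deiodinase. A Cre driven by the albumin promoter had inactivated Dio2, which the study describes as specific to hepatocytes. The libraries of a genotype were pooled before regions were called, so a region has no value per animal, no replicate error and no test between genotypes. One list held 8031 regions open in control and without an overlapping region in Alb-D2KO liver (RCAs, for reduced chromatin accessibility), and the other held 250 regions open only in Alb-D2KO liver. Open here means called as a region, and the genotype without a call may have fallen just short of it. Neither list had a region within 10 kb of Dio2 (0 and 0), and the lists hold no read coverage from which the deletion itself could be checked.

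In the liver lobule, hepatocytes around the central vein differ from those around the portal vein, and Wnt ligands made by endothelial cells of the central vein maintain this difference. The ligands bind Frizzled receptors and Lrp5 or Lrp6, the destruction complex built on Axin then no longer breaks down β-catenin (Ctnnb1), and β-catenin joins TCF/LEF factors such as Tcf7l2 on target genes. Rnf43 and Znrf3 are membrane ubiquitin ligases that remove Frizzled receptors from the cell surface, and R-spondins bound to Lgr4, Lgr5 or Lgr6 clear these ligases and so strengthen the signal. Glul, which makes glutamine synthetase, and Oat, ornithine aminotransferase, are enzymes of pericentral hepatocytes.

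Of the 10 genes, 2 had an RCA within 10 kb, the ubiquitin ligase genes Rnf43 and Znrf3. Rnf43 held 3 RCAs and Znrf3 held 2, all inside the gene bodies, and the other 8 genes had 0 RCAs within 10 kb. No region open only in Alb-D2KO liver was within 10 kb of any of the 10 genes. The share of 2 of 10 genes was 20% (95% Wilson interval 5.67 to 51.0, counting error over genes). It was near the 25.2% of all protein-coding genes with an RCA within 10 kb. A count so near this share says nothing about the role of the 2 genes. A region open only in Alb-D2KO liver lay within 10 kb of 1.02% of all protein-coding genes. The 2 genes with RCAs are 2 of the 3 that lie on chromosome 11, where 33.6% of 1637 genes had an RCA within 10 kb. The third, Axin2, had none.

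**Figure D1:**
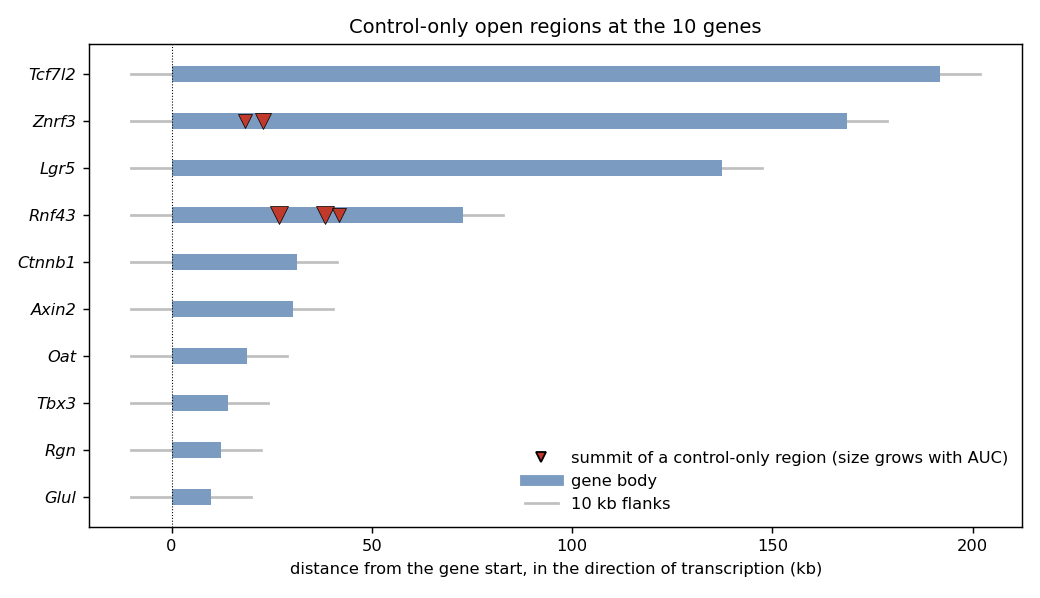
The 10 gene bodies drawn to scale from their start in the direction of transcription (x axis, kb), with 10 kb flanks in grey and a triangle at the summit of each RCA, larger for a larger AUC. The 5 triangles sit inside Rnf43 (3) and Znrf3 (2), and the other 8 rows are empty.

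Rnf43 (ENSMUSG00000034177.15) lies on chromosome 11 from 87662722 to 87735539 on the plus strand of mm10, and Znrf3 (ENSMUSG00000041961.14) on the same chromosome from 5276324 to 5444847 on the minus strand. Their regions are numbered here in the direction of transcription. The sequences of 4 of them are shown as the 300 bases around the summit (mm10, read from the RefSeq copy of GRCm38, 5′ to 3′ on the strand of the gene), since they are the DNA around which the RCAs of these genes were called. Rnf43 region 1 and Znrf3 region 2 are the strongest RCAs of their genes, and the other pair was added after the values were seen. Both sequences of the added pair hold a motif match, and that of Rnf43 region 3, which is not shown, holds none. Capitals mark TCF/LEF letters (CTTTGAT or CTTTGAA, or their reverse complements) in the Rnf43 sequences, and the nuclear receptor half-site AGGTCA, the element of which thyroid hormone receptor sites are built, in Znrf3 region 1. The windows are chr11:87689514-87689813, chr11:87700989-87701288, chr11:5426380-5426679 and chr11:5421855-5422154, in this order.
Rnf43 region 1: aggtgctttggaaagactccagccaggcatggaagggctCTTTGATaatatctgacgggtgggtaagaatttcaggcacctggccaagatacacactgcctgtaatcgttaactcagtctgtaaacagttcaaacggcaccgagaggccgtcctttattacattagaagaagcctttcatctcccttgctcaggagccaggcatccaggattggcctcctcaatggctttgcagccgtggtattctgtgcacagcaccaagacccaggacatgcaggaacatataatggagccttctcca
Rnf43 region 2: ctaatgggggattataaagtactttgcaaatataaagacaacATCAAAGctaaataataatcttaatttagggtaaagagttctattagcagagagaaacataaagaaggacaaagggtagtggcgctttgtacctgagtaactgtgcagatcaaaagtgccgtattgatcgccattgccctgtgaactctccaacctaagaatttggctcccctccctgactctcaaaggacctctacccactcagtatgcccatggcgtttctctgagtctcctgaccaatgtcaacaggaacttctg
Znrf3 region 1: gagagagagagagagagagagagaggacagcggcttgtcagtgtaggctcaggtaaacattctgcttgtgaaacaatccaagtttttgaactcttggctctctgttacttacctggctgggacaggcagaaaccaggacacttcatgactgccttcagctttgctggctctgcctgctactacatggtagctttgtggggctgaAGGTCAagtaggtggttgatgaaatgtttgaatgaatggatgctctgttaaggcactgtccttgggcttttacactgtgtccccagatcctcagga
Znrf3 region 2: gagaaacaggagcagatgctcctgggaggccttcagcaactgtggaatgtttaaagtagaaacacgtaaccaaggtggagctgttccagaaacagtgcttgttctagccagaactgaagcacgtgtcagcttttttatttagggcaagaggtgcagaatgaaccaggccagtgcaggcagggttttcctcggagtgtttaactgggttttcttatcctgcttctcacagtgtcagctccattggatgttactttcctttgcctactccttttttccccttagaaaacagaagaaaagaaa

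Rnf43 region 1 ran from 87689512 to 87689785 (274 bp), with a signal of 321.2. This signal, called AUC from here on, sums −log10 p over the bases of the region as an area, and the peak caller computed it on the pooled control libraries. The region lay in the 53.5 kb second intron of the longest coding transcript, with its summit 26.9 kb from the gene start and its edge 4796 bp away from the closest start site annotated for any gene. It was the strongest of the 5, at or above 66.5% of all RCAs in AUC, and the −log10 q at its summit was 3.30.

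Rnf43 region 2, from 87701077 to 87701495, was the widest of the 5 at 419 bp and nearly as strong (AUC 314.1, −log10 q at the summit 2.78). It overlapped the start of 1110028F11Rik, a noncoding RNA annotated within the same intron and on the same strand, and for that reason it fell in the promoter class (within 200 bp of any annotated start site). It was also the RCA closest to a start site of Rnf43 itself, 1180 bp from that of a shorter coding transcript. None of the 5 RCAs came within 200 bp of a start site of its own gene, as an RCA did in 6% of all protein-coding genes. Across all protein-coding genes, 9.58% had a promoter-class RCA inside or within 10 kb of the body, and among the 10 genes 1 did, Rnf43, through the noncoding RNA.

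Rnf43 region 3, from 87704347 to 87704646 (300 bp), followed 2851 bp after region 2, within the same noncoding RNA. Its AUC of 201.7 was just above the smallest in the list, 200.004, and at or above 1.49% of all RCAs. Its −log10 q was 2.56. Region 3 was thus among the weakest RCAs of the whole list, while regions 1 and 2 stood above the list's median AUC of 278.

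The Znrf3 regions both lay in its first intron, which spans 106 kb, nearer to the gene start than those of Rnf43 were. Znrf3 region 1, from 5426452 to 5426704 (253 bp), reached an AUC of 219.2 and a −log10 q of 3.07, with the summit 18.3 kb from the gene start. Znrf3 region 2, from 5421941 to 5422287 (347 bp), had an AUC of 254.7 and a −log10 q of 2.61, with the summit 22.8 kb from the start. They stood 4164 bp apart, and both were weaker than the median RCA. The nearest annotated start site to either was that of Znrf3, at 18143 bp and 22560 bp from the edge, against a median of 5538 bp over all 3216 intronic RCAs.

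Together the 5 regions covered 1593 bp, with a median width of 300 bp and a median AUC of 254.7. Intronic RCAs of the whole list had a median width of 311 bp and a median AUC of 271.4 (quartiles 229.7 and 341.4). The 5 values of AUC fell on both sides of that median, 2 above and 3 below. Their GC content ran from 44.1% (Znrf3 region 2) to 55.0% (Rnf43 region 3), around a median of 48.2%, against 50.5% over intronic RCAs. CpG dinucleotides were at 0.0712 (Znrf3 region 1) to 0.345 (Rnf43 region 1) of the number that the base composition would give. Annotated repeats made up 18.2% of Znrf3 region 1 and 8.03% or less of the others.

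**Figure D2:**
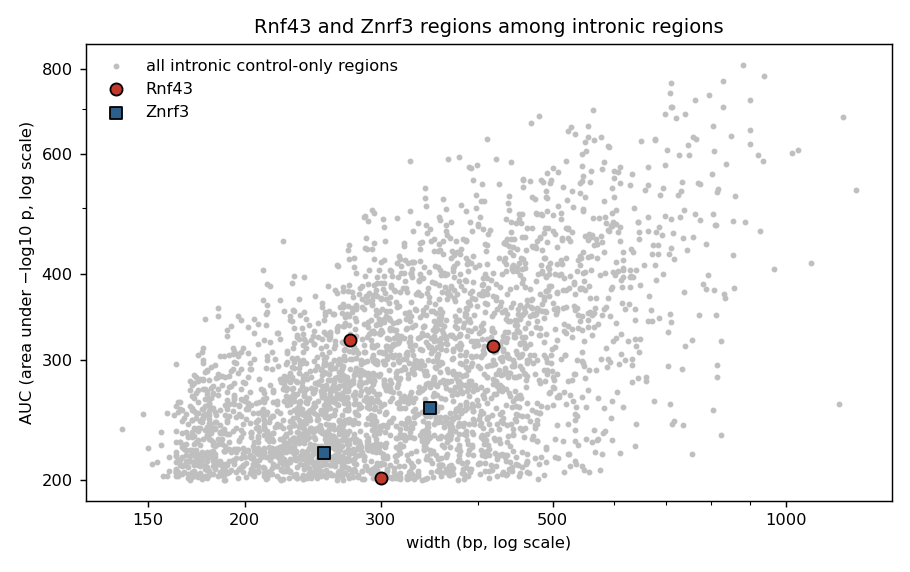
Width (x axis, bp, log scale) against AUC (y axis, area under −log10 p, log scale) of the 3216 intronic RCAs (grey), with the 3 Rnf43 regions (circles, one of them of the promoter class) and the 2 Znrf3 regions (squares). The 5 points lie within the grey cloud, from an AUC of 201.7 at its lower edge to 321.2.

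Letters of 4 motif types were searched on both strands of the 300-base windows around the summits. TCF/LEF letters were in 2 of the 5 windows, Rnf43 regions 1 and 2, while 12.2% of the 8019 RCA windows on chromosomes 1 to 19 and X held them, or 13.2% of the intronic ones. The match of Rnf43 region 1 (87689553 to 87689559) lay inside the region, whereas that of Rnf43 region 2 (87701031 to 87701037) lay 40 bp outside its edge. Over the whole of each region rather than the window, Rnf43 region 1 and Znrf3 region 2 had a match, the latter CTTTGAA at 5422188 to 5422194. AGGTCA was in 1 of 5 windows, Znrf3 region 1 (5426470 to 5426475), and in 30.04% of all RCA windows. The HNF4A letters CAAAGTCC (4.90% of RCA windows) and the C/EBP letters TTGCGCAA or TTGCATAA (1.58%) were in none of the 5. The HNF4A letters and the reverse complement of the TCF/LEF letters share the run CAAAG, so the motifs can overlap in a sequence. These matches are letters in a window and say nothing about binding.

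To set the counts against genes that offer as much sequence, each gene was compared with the 500 protein-coding genes nearest to it in length. Over these comparisons, 29.8% of 5000 (a gene may serve several of the 10) had an RCA within 10 kb, from 24.4% for Glul, the shortest gene at 9.8 kb, to 38.4% for Lgr5 at 137.5 kb. Rnf43 (72.8 kb) had 3 RCAs where genes of its length averaged 0.556, and 7.2% of them had as many or more. Znrf3 (168.5 kb) had 2 where genes of its length averaged 0.742, and 18.2% of them had as many or more. Tcf7l2, the longest of the 10 at 191.8 kb, had 0 where genes of its length averaged 0.842 and 37.4% had at least 1. Among the 100 genes of chromosome 11 nearest in length, 41% of those like Rnf43 and 44% of those like Znrf3 had an RCA. The genes compared were matched on length and not on activity in the liver, whose part in these shares was not tested.

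**Figure D3:**
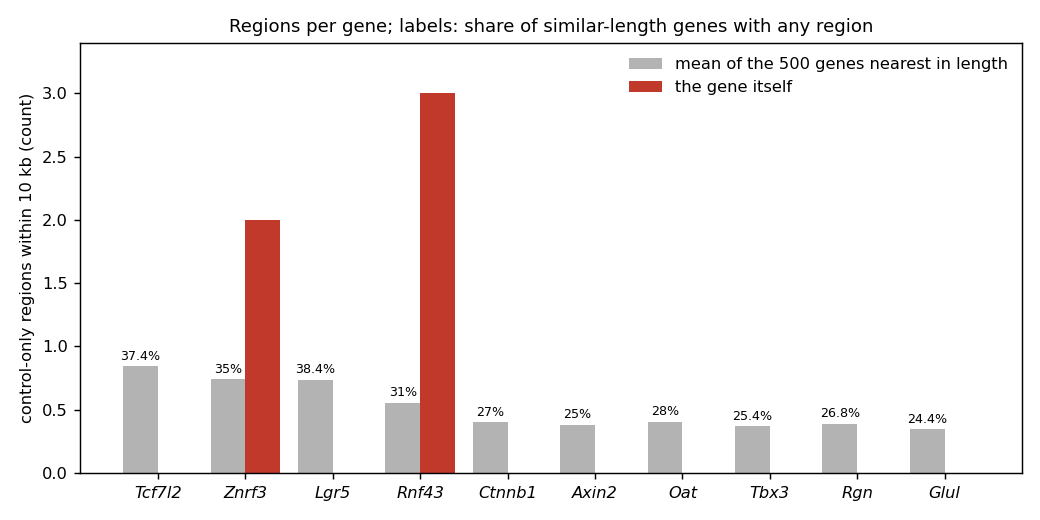
RCAs within 10 kb of each gene (red bars, count on the y axis) beside the mean count of the 500 protein-coding genes nearest in length (grey bars), with the share of those genes that had any RCA printed above. Rnf43 (3) and Znrf3 (2) exceed the grey bars, which run from 0.346 to 0.842, and the other 8 genes are at 0.

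The 8 genes without an RCA are, by role, the receptor Lgr5, the scaffold Axin2, β-catenin itself (Ctnnb1), its DNA-binding partner Tcf7l2, the repressor Tbx3 and the metabolic genes Glul, Oat and Rgn (regucalcin, a calcium-binding protein with a step in vitamin C synthesis). Axin2, Lgr5, Tbx3 and Glul are also known targets of the pathway, but this naming of targets is not complete. Rnf43 and Znrf3, which had RCAs, and the remaining genes were not sorted into targets and other genes. Whether targets differ from other genes in their RCAs was therefore not tested. The distance from the body to the nearest RCA ordered the 8 genes without an RCA from Ctnnb1 to Tcf7l2. Ctnnb1 (chromosome 9 from 120929216 to 120960507, plus strand) had one 28.0 kb upstream, from 120900943 to 120901206, which was intergenic with an AUC of 222.3. Tbx3 (chromosome 5 from 119670669 to 119684724, plus strand) had one 28.3 kb downstream, from 119712979 to 119713147, also intergenic, with an AUC of 226.2. Both were weak and outside any annotated gene.

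Lgr5 (chromosome 10 from 115450311 to 115587780, minus strand) had its nearest RCA 66.4 kb downstream, in an intron of Thap2, with an AUC of 232.9. For Oat (chromosome 7 from 132557478 to 132576398, minus strand) it lay 80.3 kb upstream, where the annotations of Fgfr2 and Lhpp overlap, with an AUC of 216.4. For Axin2 (chromosome 11 from 108920349 to 108950783, plus strand) it lay 91.6 kb upstream, in an intron of Cep112, with an AUC of 311.0. These 3 RCAs lie in other annotated genes.

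Glul (chromosome 1 from 153899944 to 153909723, plus strand) had its nearest RCA 123 kb downstream, with an AUC of 205.6, in an intron of Gm28286. For Rgn (chromosome X from 20549787 to 20562089, plus strand) it was 126 kb downstream, at the promoter of Cdk16, with an AUC of 258.1. For Tcf7l2 (chromosome 19 from 55741820 to 55933654, plus strand) it was 196 kb upstream, in an intron of Vti1a, with an AUC of 243.5. In 6 of the 10 genes the nearest RCA was farther away than the median for genes of similar length, which for Glul was 63.7 kb and for Tcf7l2 72.8 kb. The upper quartiles were 278 kb and 319 kb, and for none of these 6 was the distance beyond the upper quartile.

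**Figure D4:**
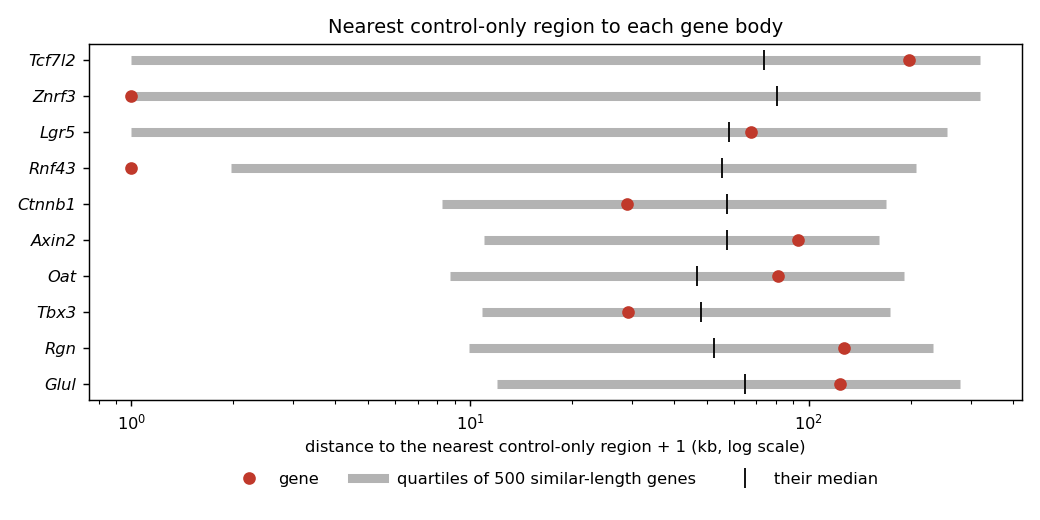
Distance from each gene body to the nearest RCA plus 1 kb (x axis, log scale), as red points, with the quartiles (grey bars) and median (ticks) of the 500 genes nearest in length. Rnf43 and Znrf3 are at a distance of 0, Ctnnb1 and Tbx3 lie below the median of similar genes, and the other 6 above it.

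Widening the distance to 50 kb added 5 RCAs, at 4 genes in all. Upstream of Znrf3, 40.8 kb from its start, an intergenic RCA from 5485692 to 5486080 had an AUC of 387.9 and was stronger than any within the 10 genes. Rnf43 gained one 23.2 kb upstream, in an intron of Hsf5 (AUC 277.5), and one 35.6 kb downstream, in an intron of Tspoap1 (AUC 207.0). The others were those described for Ctnnb1 and Tbx3. At this distance 0 regions open only in Alb-D2KO liver were found near the 10 genes.

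A gene absent from both lists may have had regions called in both genotypes, to an equal or unequal degree, or in neither. The numbering of the regions limits only how many unlisted control regions could lie near the gene. In the list, the region numbers rose strictly along each chromosome and from one chromosome to the next, and they are read here as a numbering of all control regions. On this reading, which the labels and methods do not state, a number missing between listed regions is a control region that was not listed as an RCA. From the last RCA before the 10 kb window of a gene to the first one after it, the numbers left 2 unlisted control regions for Glul (in 283 kb), Rgn (in 6840 kb), Lgr5, Tbx3, Ctnnb1, Rnf43 and Znrf3. They left 4 for Oat, 5 for Axin2 and 5 for Tcf7l2 (in 733 kb). Across genes of similar length the median was 5, with quartiles of 3 and 8 for Glul, for example. The count was at or below that median for each of the 10 genes, and where in the interval the unlisted regions lay is not known. The intervals differed in width, from 132 kb for Rnf43 to 6840 kb for Rgn. Genes of similar length were matched on the body and not on this width, so the counts do not compare the density of control regions.

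At Rnf43 the numbers 14583, 14584 and 14585 of its RCAs follow each other, and at Znrf3 so do 13623 and 13624. If the numbers run over all control regions, no other one stood between the RCAs of either gene, and 1 unlisted control region came before and 1 after them, in 132 kb around Rnf43 and 346 kb around Znrf3. Over the 10 genes, 5 of 33 control numbers in these intervals were RCAs (15.2%), against 7.78% in the intervals of genes of similar length. All 5 came from Rnf43 (3 of 5 numbers) and Znrf3 (2 of 4), and the intervals of the other 8 genes held 0. The share over all control numbers up to the highest listed one, 22367, was 35.9%, but the intervals leave out the RCAs at their ends and are lower by construction.

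Other genes of the pathway were taken from a list of 41, of which 12 had an RCA within 10 kb (29.3%, 95% Wilson interval 17.6 to 44.5), beside 27.7% of genes of similar length. This list and the zonation lists below were chosen with earlier results of these data known, so their intervals are no test. The list was grouped by role after its values were seen. The Wnt ligands and their export proteins (Wnt2, Wnt9b, Wls and Porcn) had 0 of 4, and the destruction complex (Axin1, Apc, Gsk3b, Csnk1a1 and Btrc) had 0 of 5. R-spondins and their other receptors had 1 of 4, Dishevelled proteins 2 of 3, inhibitors 1 of 6 and targets 1 of 3. Groups this small do not tell the roles apart, and differences between roles were not tested. Among receptors and coreceptors 3 of 7 had one. The strongest of the list was at Lrp5, the Wnt coreceptor, which held 4 intronic RCAs with a highest AUC of 677.2, while Lrp6 had none. Lgr4, the relative of Lgr5 that binds the same R-spondins, held 3 intronic RCAs with a highest AUC of 447.0. The intracellular relay Dvl1 had 4, led by one at the neighboring Mxra8 (AUC 515.3).

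Among the TCF/LEF factors and their cofactors 4 of 9 had an RCA. Tcf7l1, the relative of Tcf7l2 that acts mainly as a repressor, held 5. The strongest had an AUC of 453.0 and was of the exon class, 135361 bp from the gene start, where Gm38320 is also annotated. Bcl9l, a coactivator of β-catenin, also held 5. The strongest had an AUC of 449.4 and was of the promoter class, 861 bp from the gene start, where Gm47205 is also annotated. These classes take exons and start sites of any gene, so they need not be those of Tcf7l1 or Bcl9l. RCAs within 200 bp of the gene's own start site were found at Bcl9l, Dvl1 and Tcf7l1, that is at 3 of the 41, beside the 6% of all protein-coding genes. Bcl9, the relative of Bcl9l, was the 1 gene of the 41 with a region open only in Alb-D2KO liver, beside 1.02% of all protein-coding genes. It lay in an intron 486 bp from the gene start, on chromosome 3 from 97296952 to 97297431. Its AUC was 218.4, from the Alb-D2KO call, where the smallest listed was 200.057. Whether these related genes differ beyond the pooled calls was not tested.

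Of 18 listed pericentral genes outside the 10 genes, 13 had an RCA within 10 kb (72.2%, 49.1 to 87.5), beside 26.7% of genes of similar length. The strongest was in an intron of Cyp27a1, the sterol 27-hydroxylase of bile acid synthesis, with an AUC of 586.6. Por, the reductase that supplies cytochromes P450 with electrons, had 4 RCAs with a highest AUC of 500.5 at a start site within the gene, and Rhbg, an ammonium transporter of pericentral cells, had 3 with 375.5 at its start. The RCAs counted for Gulo and Nr1i3 were led by ones in Clu (AUC 503.0) and at the promoter of Apoa2 (AUC 485.3), their neighbors. With the gene body alone, 9 of the 18 had an RCA, beside 17.5% of genes of similar length and 15.8% of all protein-coding genes.

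Of 18 listed periportal genes, from the other end of the zonation axis, 12 had an RCA within 10 kb (66.7%, 43.7 to 83.7), beside 26.9% of genes of similar length, and 9 had one in the gene body, beside 17.2%. Hal, histidine ammonia-lyase, had an RCA over its start with an AUC of 716.4. The strongest RCAs near Apoa4 (AUC 1253) and Asl (AUC 659.2) lay in the neighboring Apoa1 and Crcp, that of Alb (AUC 595.7) was intergenic, and that of Cdh2 (AUC 416.1) was intronic. Cdh1, the other cadherin of the list, had none. The zone of each listed gene, that of Cdh2 included, is as listed and was not checked in these data. Here too the genes of similar length were not matched on activity in the liver. In nuclei from bulk liver, a region closed in some of the cells cannot be told apart from one less open in all of them. The lists therefore do not say from which zone an RCA came.

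**Figure D5:**
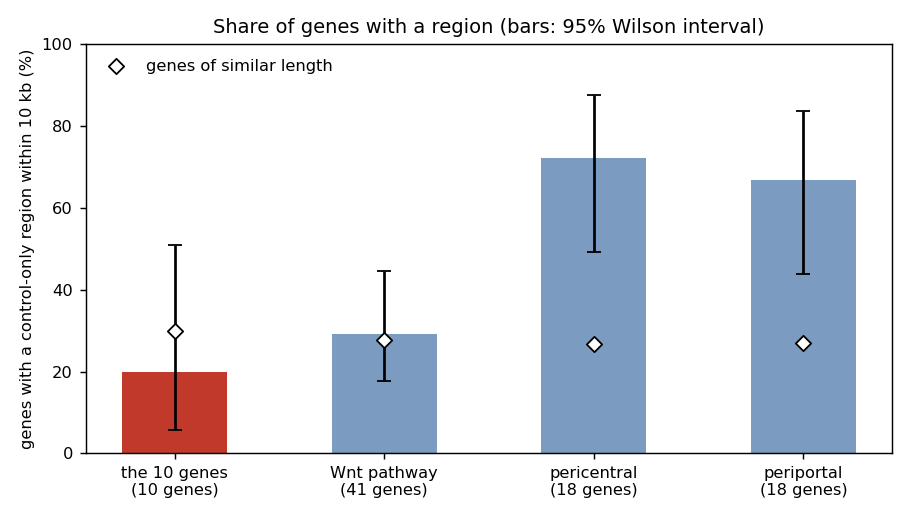
Share of genes with an RCA within 10 kb (y axis, percent) for the 10 genes, the Wnt pathway list, and the pericentral and periportal lists, with 95% Wilson intervals as error bars and the share among genes of similar length as diamonds. The shares are 20% for the 10 genes, 29.3% for the pathway list, 72.2% for pericentral and 66.7% for periportal genes. The diamonds stand at 29.8%, 27.7%, 26.7% and 26.9%, in that order. The genes and lists were chosen with earlier results of these data known, so the intervals are no test against the diamonds.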

How the data were processed

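ATAC-seq libraries of liver nuclei, 4 control and 4 Alb-D2KO, were grouped by the genotype in their labels. The authors trimmed adapters with NGmerge, aligned reads to mm10 with BWA 0.7.17, removed chimeric, duplicate, supplementary and low-quality alignments, and ran Genrich 0.6 on the pooled libraries (read here as pooled by genotype) outside blacklisted regions. Each deposited list keeps the regions of one genotype that overlap none of the other. Run on single libraries, Genrich gave few regions, and these formed the blacklist. The deposited signal is the area under −log10 p that Genrich gave each region of the pooled call, and the −log10 q that the authors deposited is that of the summit. The smallest area was 200.004 in the control list and 200.057 in the Alb-D2KO list. Signal below the calling limits in the other genotype is not visible in these lists. Each list was normalized within its own call, so signals were compared within a list. Read depth is unknown, and pooling hides the spread between animals and any difference in depth between genotypes.

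Regions were counted within 10 kb of GENCODE M21 gene bodies (an mm10 annotation, not the release the authors used) with an overlap of at least 1 bp, and classed as promoter (within 200 bp of a start site), exon, intron or intergenic, in that order. Similar length meant the 500 protein-coding genes nearest in length. Sequence came from GRCm38, the assembly of mm10. Motif letters were searched in 300 bases around summits. Python 3.11.15, pandas 2.3.3 and Biopython 1.88 were used, and the counting was tested on invented regions with known answers. No test between genotypes was possible. Intervals are 95% Wilson intervals and cover counting error over genes. The 10 genes and the gene lists were chosen with earlier results of these data known, and the roles within the pathway list were grouped after its values were seen. The text names the 10 genes, the 5 genes of each list with the strongest RCA, each list gene with an Alb-D2KO-only region, and, after their values were seen, list genes given by role. Alternatives were other distances, AUC, q and width minima, merging within 100 bp, midpoints, other promoter windows and other rules for similar length.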

Additional observations from a re-analysis of the deposited data

How the results depend on the processing

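Of 78 alternative values, 58 stayed with the main value, meaning a count within 1.5 times of it, a percentage within its 95% Wilson interval, or a median AUC within the SD over the 5 regions. With a distance of 50 kb, 4 of the 10 genes had an RCA, 10 RCAs were counted, 21 genes of the pathway list had one, and the share among genes of similar length was 48.1%. With an AUC of at least 300, 1 of the 10 genes (Rnf43) was left with 2 RCAs and a median AUC of 317.6, the share among genes of similar length was 15.1%, and the pathway and periportal lists had 7 genes each. With a summit q under 0.001, 2 RCAs were left, 0 of the 10 genes had a promoter RCA, 8 pericentral genes had an RCA and the share was 23.0%. With start sites of the gene itself, 0 of the 10 genes had a promoter RCA. The share among genes of similar length was 21.2% for the gene body alone, 26.2% at 5 kb, 26.4% with a width of at least 200 bp and 27.7% for genes within 20% in length. On the own chromosome of each gene, an alternative chosen after seeing the data, it was 31.3%. RefSeq gene bodies, also added later, gave 2 genes and 5 RCAs. Regions open only in Alb-D2KO liver stayed at 0 in all 8 alternatives. The share of control numbers near the 10 genes that were RCAs, 15.2% at 10 kb, was 24.4% at 50 kb, within the wide Wilson interval of 5 of 33.

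No paired analysis was possible because regions were called on libraries pooled within each genotype, so that no region has a value for a replicate. No library was left out for the same reason, and the depth behind each region is unknown.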
